A study of Mus musculus with 6 samples.

Results

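The genes described here are 47 genes that copy DNA in dividing cells, chosen by name: the origin recognition complex, the factors that load and activate the MCM helicase, the replicative polymerases, the sliding clamp and its loader, single-strand binding and Okazaki fragment enzymes, and enzymes of deoxynucleotide supply. All 47 were among the 54532 rows of the deposited count table, and all 47 were among the 13444 genes with enough counts to be tested. In 32D cells with mutant U2AF1 S34F, none of the 47 passed the test against 32D cells with U2AF1-WT (quasi-likelihood F test in edgeR, at an adjusted p under 0.05), a threshold that 2.18% of all tested genes passed. The smallest adjusted p were those of Rfc2, a clamp loader subunit, Orc3, an origin recognition subunit, and Dut, the dUTPase. About as many members lay above WT as below it, with 23 positive and 24 negative log2 differences.

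32D is a mouse myeloblast-like cell line that grows in interleukin 3. The cells compared had been transduced with a retrovirus that also encodes GFP and carries human U2AF1, either with the S34F change or wild type. U2AF1 is the small subunit of the splicing factor that recognises the 3′ splice site, and S34F is a recurrent change in myeloid malignancy. Each genotype had 3 messenger RNA libraries. Both genotypes carry a human U2AF1 transgene beside the endogenous mouse gene. Whether the libraries of a group came from separate transductions or cultures, or whether cells were cloned, is not given in the sources used here, so p-values measure only the spread between these libraries.

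Replication begins when the origin recognition complex, with Cdc6 and Cdt1, loads the 6-subunit MCM helicase onto DNA in G1 phase. Cdc45 and the GINS complex then turn MCM into an active helicase, polymerase alpha with primase lays down primers, and polymerases epsilon and delta extend them with the help of the PCNA clamp. Transcription of many of these genes is driven by E2F factors as cells enter S phase, and pocket proteins such as Rb1 and Rbl2 hold E2F targets down in resting cells. In a bulk library a smaller share of cells in S phase and less RNA per cell cannot be told apart.

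E2F sites are the best known shared element of these genes, and the upstream sequences of 3 members are shown as examples. The 8-base motifs TTTCCCGC, TTTCGCGC, TTTGCCGC and TTTGGCGC were searched on both strands from 250 bases before to 50 bases after the start in RefSeq promoter entries of GRCm38.p6. Matches can overlap each other. Of the 47 members, 39 had an entry, and 15 of these 39 (38.5%) held a motif. The same held for 4.83% of the 9121 tested genes with an entry and for 2.26% of all 32851 promoters. The motif was in the windows of Orc1, Orc3, Cdc6, Cdt1, Mcm3, Mcm5, Mcm6, Mcm7, Gins3, Pola1, Pole2, Pold1, Pold3, Rfc3 and Lig1. Shown are the 170 bases before the start of the helicase subunits Mcm5 (chr8:75109339-75109508, plus strand) and Mcm6 (chr1:128359706-128359875, minus strand) and of the polymerase alpha catalytic subunit Pola1 (chrX:93632156-93632325, minus strand), each read 5′ to 3′ along the gene with the motif in capitals.
Mcm5: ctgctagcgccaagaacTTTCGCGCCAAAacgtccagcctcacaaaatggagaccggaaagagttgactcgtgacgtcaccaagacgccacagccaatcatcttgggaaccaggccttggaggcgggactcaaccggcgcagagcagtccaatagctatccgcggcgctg
Mcm6: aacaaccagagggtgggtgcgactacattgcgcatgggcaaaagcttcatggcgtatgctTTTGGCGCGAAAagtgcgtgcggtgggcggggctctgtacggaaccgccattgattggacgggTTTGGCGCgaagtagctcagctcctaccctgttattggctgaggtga
Pola1: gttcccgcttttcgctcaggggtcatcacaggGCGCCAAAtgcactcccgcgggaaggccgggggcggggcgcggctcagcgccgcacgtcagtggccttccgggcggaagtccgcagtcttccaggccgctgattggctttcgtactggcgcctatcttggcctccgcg
In Mcm5 the capitals are a pair of overlapping matches, 1 on each strand, that begin 153 and 149 bases before the start. Mcm6 holds such an overlapping pair, at 110 and 106 bases, and a further match 47 bases before the start. The single match of Pola1 lies 138 bases before the start. CCAAT, the motif of the factor NF-Y, was in the windows of 24 of the 39 members (61.5%), against 43.3% of tested genes and 37.4% of all promoters. A match describes the letters only and is no measured binding.

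Levels are given in CPM, a gene's count relative to the TMM-scaled library total, unless said otherwise. Library totals were 16716979 to 19129250 counts in S34F and 16509899 to 18119760 in WT, so that 1 count equalled 0.0520 to 0.0608 CPM. WT libraries 2 and 3 stood apart by their closeness, since the variation between them beyond counting error was 3.16% over the tested genes. It was 16.5% to 21.5% for the other pairs within a genotype and 21.7% to 29.5% for pairs of unlike genotype. They were kept as separate libraries. With their counts summed into 1 library, 20 genes passed the test, against 293 with both libraries, and again none of the 47 members did.

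No replication gene passed the test, and the median log2 difference of the set was near 0. Of all tested genes 2.18% passed the test, 1.58% higher and 0.595% lower in S34F, and of the 47 members 0. At so low a share, 0 of 47 is near what all tested genes gave. In a simulated data set only 13.1% of genes changed 1.5-fold were called, so a missing call does not show an unchanged level. At an unadjusted p under 0.05, 6 members differed (12.8%), against 22.0% of all tested genes: Dut was above WT, and Rfc2, Orc3, Orc4, Mcm6 and Pole2 were below it. DESeq2 called 3 members, namely Dut above and Orc3 and Rfc2 below WT, where 8.58% of all genes with an adjusted p were called. With limma-voom none was called, against 2.02% of all tested genes. The median log2 difference of the members was −0.01, beside 0.00 over all tested genes, and the members ran from −0.53 to 0.55. Their median absolute log2 difference was 0.115, against 0.239 over all tested genes, and their median standard error was 0.157, against 0.180. For 31 of the 47 members (66.0%) the whole 95% confidence interval lay within a 1.5-fold change in either direction, against 38.9% of all tested genes. For the other 16 the interval includes a change of 1.5-fold or more. All these intervals count the unusually close WT libraries 2 and 3 as separate libraries. If those are not independent, the intervals may be too narrow. The members also had a higher median level, 85.2 CPM against 28.3 CPM over all tested genes. Genes were not matched for level in these comparisons, and the part of level in them was not tested.

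**Figure D1:**
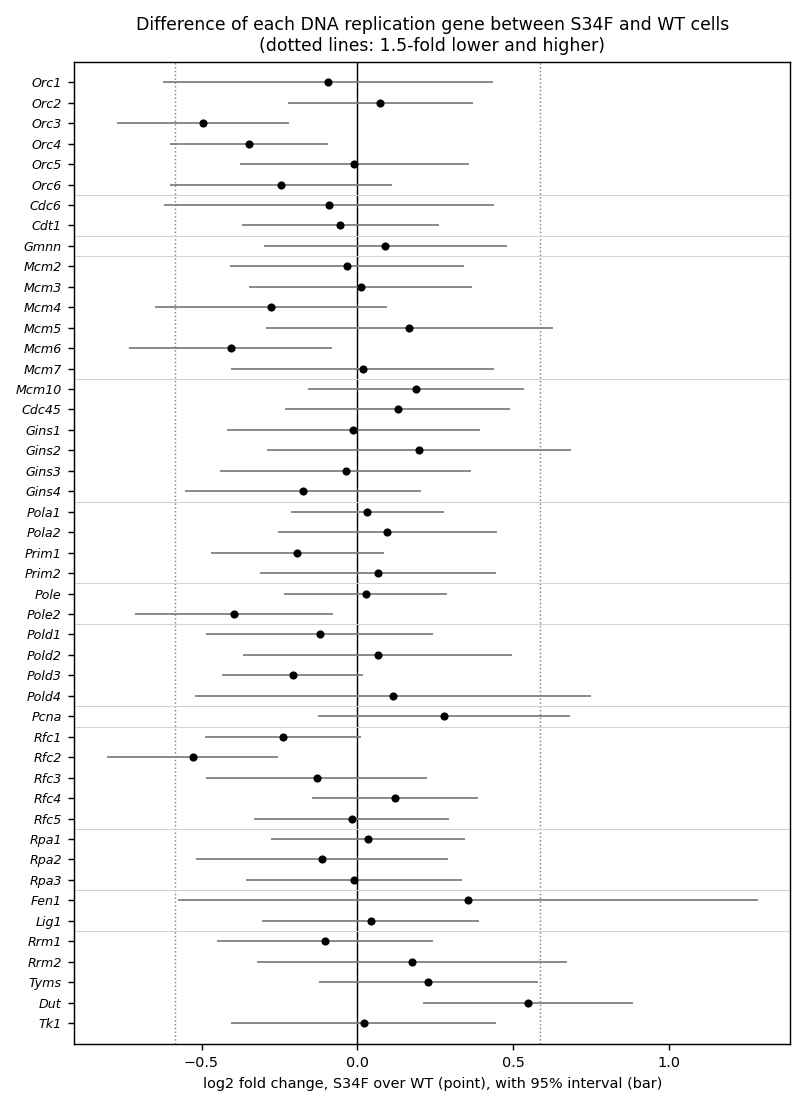
Log2 difference of S34F against WT for each of the 47 replication genes, grouped by role; points are edgeR estimates, bars 95% confidence intervals from 3 libraries per genotype, and dotted lines mark 1.5-fold. The points lie between −0.53 (Rfc2) and 0.55 (Dut), and no gene reached an adjusted p under 0.05.

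No origin recognition subunit passed the test, and most had negative log2 differences. The complex binds origins and recruits the helicase loaders. Of its 6 subunits, 5 had negative log2 differences, with a median of −0.17 and a range of −0.49 to 0.07. Orc3 (ENSMUSG00000040044, chr4:34570796-34614944 on mm10), a core subunit, had 137, 146 and 118 CPM in the S34F libraries, against 171, 195 and 199 CPM in the WT libraries. Its 3 S34F values all lay below its WT values (log2 difference −0.49 ± 0.12 (SE), 95% interval −0.77 to −0.22, edgeR adjusted p = 0.0733). Orc4 (ENSMUSG00000026761, chr2:48902824-48950277), an ATPase-fold core subunit, had 80.5, 81.2 and 77.6 CPM in the S34F libraries, against 89.6, 107 and 108 CPM in the WT libraries. Here too the groups did not overlap (log2 difference −0.35 ± 0.11 (SE), edgeR adjusted p = 0.127). When a trend of level with GC content was removed in each library, the log2 differences were −0.32 for Orc3 and −0.06 for Orc4. Orc1, Orc2, Orc5 and Orc6 had log2 differences of −0.10, 0.07, −0.01 and −0.24, and their groups overlapped. Nif3l1 covers 29.8% of the exon bases of Orc2 on the opposite strand, and the strand setting of the counting is not given in the sources used here.

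No factor of helicase loading passed the test. Cdc6, an ATPase that joins the origin complex, averaged 33.9 ± 7.55 CPM in S34F cells and 36.1 ± 10.9 CPM in WT cells (SD, n = 3 each). Cdt1, which brings MCM to the origin, averaged 125 ± 10.6 CPM in S34F cells and 129.8 ± 21.5 CPM in WT cells. Geminin (Gmnn), the inhibitor of Cdt1, averaged 47 ± 3.95 CPM in S34F cells and 44.1 ± 10.6 CPM in WT cells. These means lay closer together than the SDs, and the log2 differences were −0.09, −0.05 and 0.09.

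MCM subunits were among the members with the highest CPM, a measure not scaled to gene length, and no subunit passed the test. Mcm2 to Mcm7 form 1 ring with an equal number of each subunit, and their log2 differences ran from −0.41 to 0.17 with a median of −0.01. Mcm6 (ENSMUSG00000026355, chr1:128331590-128359664) had 323, 288 and 238 CPM in the S34F libraries, against 421, 360.1 and 346 CPM in the WT libraries. It was the only MCM subunit whose groups did not overlap (log2 difference −0.41 ± 0.14 (SE), 95% interval −0.73 to −0.08, edgeR adjusted p = 0.152). Mcm4 had 192, 182 and 133 CPM in the S34F libraries, against 239, 185 and 191 CPM in the WT libraries. The lowest value of Mcm4 was that of S34F library 3, while the other S34F values lay near WT libraries 2 and 3 (log2 difference −0.28 ± 0.16 (SE), edgeR adjusted p = 0.356). Without S34F library 3 the log2 difference of Mcm4 was −0.13, and without WT library 1 it was −0.15.

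For the 4 other MCM subunits the groups overlapped. Mcm2 had 254, 194 and 182 CPM in the S34F libraries, against 255, 199 and 190.4 CPM in the WT libraries. Mcm3 had 356, 353 and 309 CPM in the S34F libraries, against 419, 300.3 and 291 CPM in the WT libraries. In both, 1 WT library exceeded the other WT libraries by more than the genotypes differed on average. Mcm5 had 318, 241 and 246 CPM in the S34F libraries, against 319, 200.1 and 199 CPM in the WT libraries. Its groups overlapped through WT library 1 alone, and its log2 difference ran from 0.02 without S34F library 1 to 0.44 without WT library 1. Mcm7 had the highest mean CPM of the 47 genes, not scaled to gene length. Its values were 486, 464 and 348 CPM in the S34F libraries, against 537, 366 and 379.7 CPM in the WT libraries. WT library 1 was the highest of all 6 libraries for each of the 6 MCM subunits. The edgeR log2 differences were −0.03, 0.01, 0.17 and 0.02 for Mcm2, Mcm3, Mcm5 and Mcm7, with adjusted p of 0.933, 0.975, 0.670 and 0.966. The signs of Mcm2, Mcm3 and Mcm7 turned under some other settings.

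Genes of helicase activation scattered around WT. Mcm10 and Cdc45, which help open the loaded ring, had log2 differences of 0.19 and 0.13. Those of the GINS subunits Gins1 to Gins4 were −0.01, 0.20, −0.04 and −0.17. None of the 6 had groups that did not overlap. The Gins2 value is uncertain, because Gse1, with a mean of 161 CPM against 16.1 CPM for Gins2, covers 67.3% of the exon bases of Gins2 on the opposite strand.

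Polymerase genes gave 1 member with an unadjusted p under 0.05, Pole2, the second subunit of the leading strand polymerase epsilon (ENSMUSG00000020974, chr12:69201773-69228195). It had 34.9, 34.8 and 27.2 CPM in the S34F libraries, against 38.6, 44.7 and 44.4 CPM in the WT libraries. The groups did not overlap (log2 difference −0.40 ± 0.14 (SE), 95% interval −0.71 to −0.08, edgeR adjusted p = 0.152). Pole, the catalytic subunit of the same enzyme, averaged 102 ± 12.2 CPM in S34F cells and 101 ± 1.96 CPM in WT cells (log2 difference 0.03). Pold3, an accessory subunit of the lagging strand polymerase delta, had 93.8, 100.4 and 90 CPM in the S34F libraries, against 107, 112 and 109 CPM in the WT libraries. Its S34F values all lay below WT as well, by a small amount (log2 difference −0.21 ± 0.10 (SE), edgeR adjusted p = 0.263). Pold1, Pold2 and Pold4 had log2 differences of −0.12, 0.07 and 0.11. Polymerase alpha and primase, which make the RNA-DNA primers, ranged from −0.19 for Prim1 to 0.10 for Pola2, with 0.03 for Pola1 and 0.07 for Prim2.

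The sliding clamp gene had a positive log2 difference and 4 of the 5 clamp loader genes a negative one, and none passed the test. Of all 13444 tested genes, 6706 had a negative log2 difference. PCNA is the ring that tethers polymerases to DNA, and Pcna had 325, 320.3 and 274 CPM in the S34F libraries, against 328, 210.4 and 220.0 CPM in the WT libraries. WT library 1 was the highest of all 6, and the other WT libraries lay below every S34F library (log2 difference 0.28 ± 0.18 (SE), edgeR adjusted p = 0.393). Without WT library 1 the log2 difference of Pcna was 0.52, with an edgeR adjusted p of 0.0412 (0.0412 to 0.787 over all settings tried). In that fit the WT spread rests on WT libraries 2 and 3 alone, which varied by only 3.16%. Its adjusted p is therefore not comparable with that of the other fits. With the GC trend removed the log2 difference of Pcna was 0.42. It was 0.16 without WT library 2, 0.19 without WT library 3 and 0.17 with these libraries summed.

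The clamp loader opens the PCNA ring and closes it around DNA. Rfc2 (ENSMUSG00000023104, chr5:134581366-134601805), a small ATPase subunit, had 79.1, 89.8 and 72.1 CPM in the S34F libraries, against 106, 119 and 123 CPM in the WT libraries. Its highest S34F value lay below its lowest WT value, and it had the smallest adjusted p of the 47 genes (log2 difference −0.53 ± 0.12 (SE), 95% interval −0.80 to −0.25, edgeR adjusted p = 0.0655). Rfc1, the large subunit specific to the PCNA loader, had 174, 189 and 165 CPM in the S34F libraries, against 226, 196 and 202 CPM in the WT libraries. Its groups did not overlap either (log2 difference −0.24 ± 0.11 (SE), edgeR adjusted p = 0.249). Rfc3, Rfc4 and Rfc5 had log2 differences of −0.13, 0.12 and −0.02, and their groups overlapped. Lat2 covers 15.1% of the exon bases of Rfc2 on the opposite strand, with a mean of 1.74 CPM against 98.1 CPM for Rfc2.

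Single-strand binding and Okazaki fragment genes had no member that passed the test. The RPA subunits Rpa1, Rpa2 and Rpa3, which coat unwound DNA, had log2 differences of 0.03, −0.11 and −0.01. Lig1, the ligase that seals the fragments, had a log2 difference of 0.04. Fen1, the nuclease that trims their flaps, had the lowest level of the set, with 5.53, 5.77 and 6.33 CPM in the S34F libraries, against 8.03, 3.48 and 2.32 CPM in the WT libraries. Its WT libraries spread over more than the whole S34F range (log2 difference 0.35 ± 0.41 (SE), 95% interval −0.58 to 1.28, edgeR adjusted p = 0.651). Without WT library 1 the log2 difference of Fen1 was 1.02, without WT library 2 it was 0.18, and without WT library 3 it was 0.03. Gm10143 covers 78.8% of the exon bases of Fen1 on the opposite strand, so its count is uncertain.

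In nucleotide supply, 4 of 5 enzymes had positive log2 differences, with a median of 0.18. Dut (ENSMUSG00000027203, chr2:125247190-125258608), the dUTPase that keeps uracil out of DNA and yields the precursor of dTTP, had 275, 204 and 197 CPM in the S34F libraries, against 168, 143 and 151 CPM in the WT libraries. It was the 1 member with all S34F values above all WT values, and S34F library 1 was the highest by a clear gap (log2 difference 0.55 ± 0.15 (SE), 95% interval 0.21 to 0.89, edgeR adjusted p = 0.0923). Thymidylate synthase (Tyms) and thymidine kinase (Tk1), which make dTMP, had log2 differences of 0.23 and 0.02. Rrm1 and Rrm2, the large and small subunits of ribonucleotide reductase, had −0.10 and 0.18.

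Over all 47 members, the groups did not overlap for 8 (17.0%), of which 1 lay above and 7 below WT. Over all tested genes the share was 27.1%, with 14.0% above and 13.1% below. Of the members, 2.13% lay above and 14.9% below WT in every library, and the difference between the directions was not tested.

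**Figure D2:**
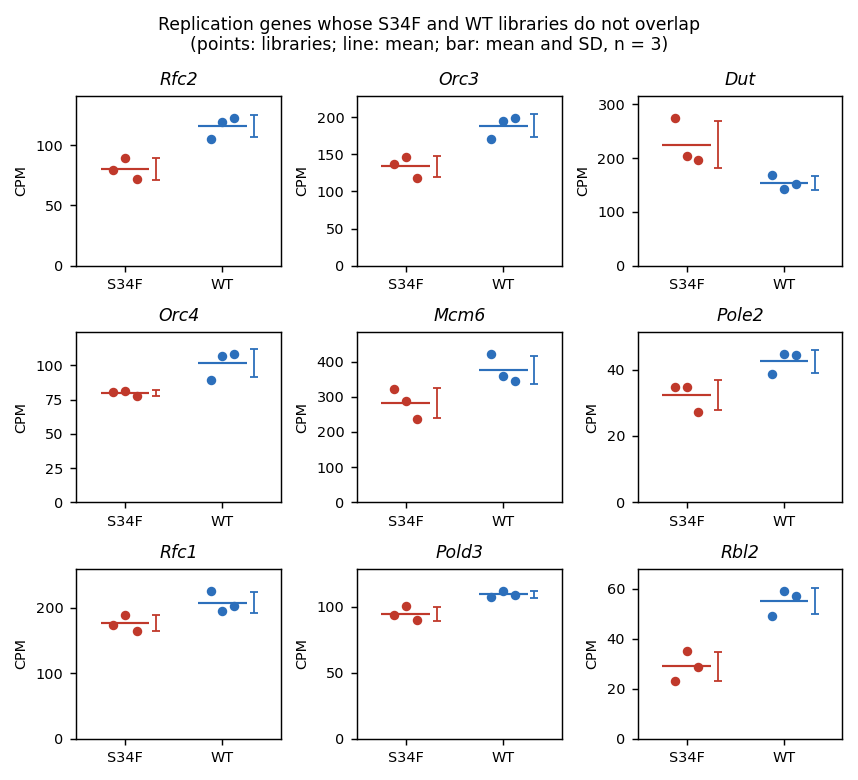
CPM in each library for the 8 replication genes whose S34F and WT libraries do not overlap, and for Rbl2, with S34F left of WT; points are libraries, lines means and bars the SD of 3 libraries. Dut lies above WT in S34F and the other 7 members and Rbl2 lie below it; of the genes plotted, Rbl2 alone passed the test.

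A pattern shared by most members ran between libraries of the same genotype. WT library 1 was the highest of the WT libraries for 35 of the 47 members (74.5%), against 42% of all tested genes, and the highest of all 6 libraries for 28 members (59.6%), against 17.4%. S34F library 3 was the lowest S34F library for 36 members (76.6%), against 30.2% of all tested genes. The excess of WT library 1 was not particular to the members. Among 77 further replication pathway genes, described below, it was the highest WT library for 52 (67.5%). S34F library 3 was the lowest S34F library for 28 of these 77 (36.4%). Both held for all 6 genes of replication-coupled chromatin assembly. The median member lay 0.36 above the mean of WT libraries 2 and 3 on the log2 scale in WT library 1, while the median of all tested genes lay at −0.02. In S34F library 3 the median member stood at −0.22 relative to the mean of S34F libraries 1 and 2, against 0.007 for all tested genes. Summed over the 47 members, the levels were 5694, 5640 and 4791 CPM in the S34F libraries and 6379, 5052 and 5078 CPM in the WT libraries. For the 6 MCM subunits alone they were 1930, 1722 and 1456 CPM in S34F and 2189, 1611 and 1597 CPM in WT. Both sums had their highest value in WT and their lowest in S34F library 3, with S34F libraries 1 and 2 above WT libraries 2 and 3. Members are no independent replicates, and these shares describe 6 libraries only. Without WT library 1 the median log2 difference of the members between genotypes was 0.10, and without S34F library 3 it was 0.06, against −0.01 with all 6 libraries.

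**Figure D3:**
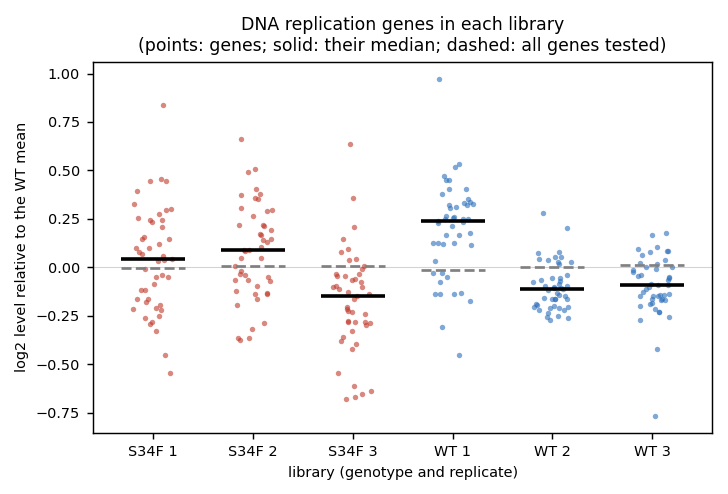
Log2 level of each of the 47 replication genes in each library relative to its WT mean, S34F libraries left of WT libraries; points are genes, the solid line is the median of the members and the dashed line the median of all tested genes. The median is highest in WT library 1, at 0.24, and lowest in S34F library 3, at −0.15, while the dashed line stays near 0.

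**Figure D4:**
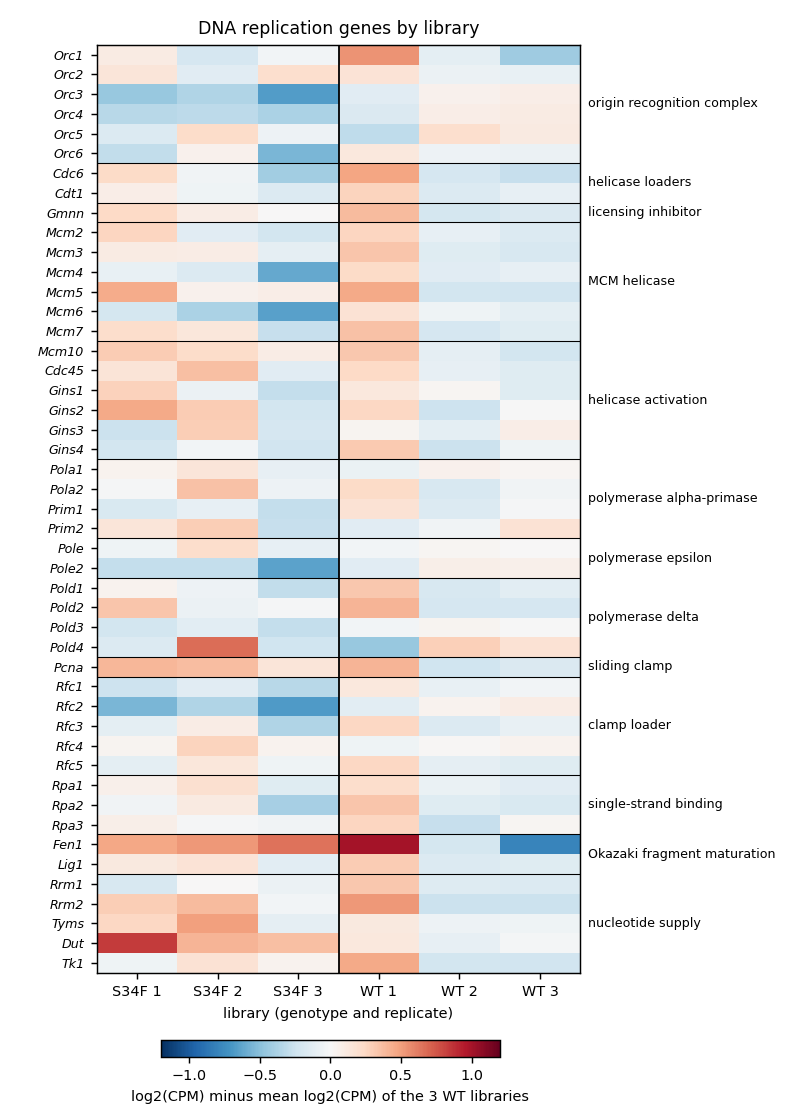
Log2 level relative to the WT mean for the 47 replication genes, grouped by role down the page, in the 3 S34F libraries (left) and the 3 WT libraries (right). Most genes are above 0 in WT library 1 and below their other S34F values in S34F library 3. Rfc2, Orc3, Orc4, Mcm6, Pole2, Rfc1 and Pold3 are lower in all 3 S34F libraries than in any WT library.

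Levels of different genes were compared per kilobase of exon, in CPM per kb. Pcna stood highest at 128 ± 11.8 in S34F cells and 105 ± 27.1 in WT cells (SD, n = 3 each), followed by Mcm7 at 97.7 ± 16.8 in S34F cells and 96.5 ± 21.4 in WT cells. The order of Mcm7, Mcm3 and Dut cannot be resolved within S34F, where their SDs overlap. The 6 MCM subunits spanned 3.23-fold in S34F and 3.13-fold in WT, from Mcm2 at 30.2 ± 5.58 in S34F cells and 30.9 ± 5.05 in WT cells up to Mcm7. The origin recognition subunits spanned 3.55-fold in S34F and 4.0-fold in WT, with Orc1 lowest at 7.24 ± 0.738 in S34F cells and 7.74 ± 2.72 in WT cells. RPA subunits lay closer together, with a span of 1.27-fold in S34F and 1.1-fold in WT. At the low end were Fen1 at 2.43 ± 0.170 in S34F cells and 1.90 ± 1.25 in WT cells, Gins2 at 4.20 ± 0.967 in S34F cells and 3.67 ± 0.637 in WT cells and Cdc6 at 6.48 ± 1.44 in S34F cells and 6.91 ± 2.09 in WT cells. Exon length was the union of annotated exons, which understates the level of genes with long exons that the cells do not use. Gm10143 covers 78.8% of the exon bases of Fen1 and Gse1 67.3% of those of Gins2, both on the opposite strand. The low values of Fen1 and Gins2 are therefore uncertain.

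**Figure D5:**
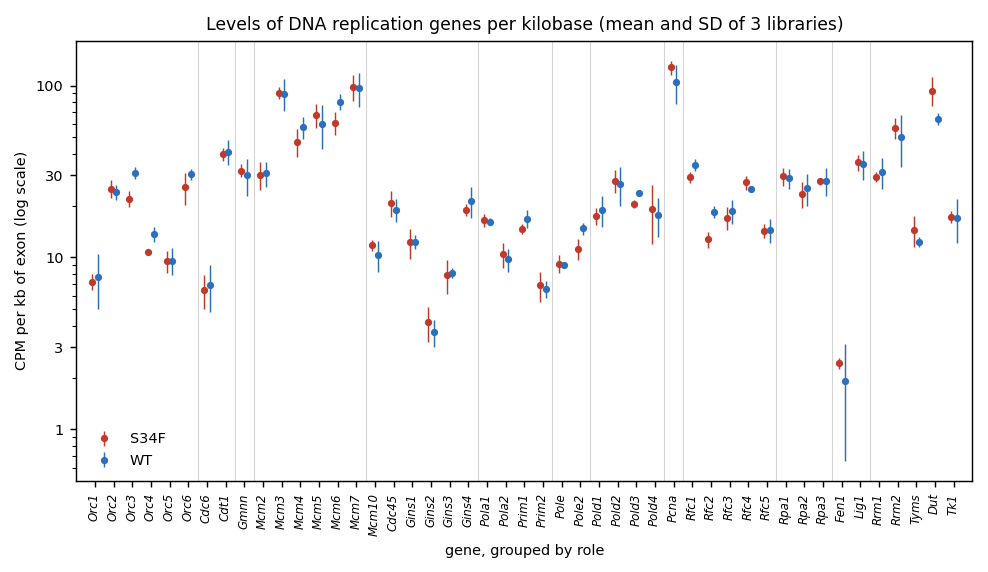
Mean level of each of the 47 replication genes in CPM per kilobase of exon on a log axis, S34F and WT side by side; points are means and bars the SD of 3 libraries. Pcna, Mcm7, Mcm3 and Dut are at the top and Fen1, whose count is uncertain, at the bottom. The genotypes lie close together for most genes.

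Members with and without the E2F motif were set side by side. For the 15 with a motif the median log2 difference was −0.09 with 10 negative values, and for the 24 without it the median was 0.05, also with 10 negative values. The excess of WT library 1 over WT libraries 2 and 3 had a median of 0.39 on the log2 scale with the motif and 0.35 without it. WT library 1 was the highest WT library for 10 of the 15 with the motif and 20 of the 24 without it. Of the members with their promoter printed, Mcm5, Mcm6 and Pola1 had log2 differences of 0.17, −0.41 and 0.03.

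Of 77 further genes of the replication pathway (licensing control, firing kinases and factors, E2F and pocket proteins, fork protection, alternative clamp loaders, topoisomerases, chromatin assembly, further nucleotide enzymes), 1 fell, none rose and 76 did not pass the test, against 2.18% of all tested genes that passed it. At an unadjusted p under 0.05 there were 13 (16.9%), 5 above and 8 below WT, against 22.0% of all tested genes, and the median log2 difference was 0.02. For 18 of the 77 (23.4%) the groups did not overlap, 9 on each side, near the 27.1% of all tested genes. Of the 13 E2F and pocket protein genes 1 passed the test, and of the 19 further nucleotide enzymes none did, with 14 positive log2 differences among them. The gene that fell was Rbl2 (ENSMUSG00000031666, chr8:91070057-91123844), which encodes the pocket protein p130, a repressor of E2F target genes in resting cells. It had 23.1, 34.9 and 28.7 CPM in the S34F libraries, against 49.3, 59.1 and 56.9 CPM in the WT libraries. Every S34F value lay below every WT value, and the fitted level was 1.91-fold lower in S34F (log2 difference −0.93 ± 0.16 (SE), 95% interval −1.30 to −0.56, edgeR adjusted p = 0.0323). The edgeR call was lost without S34F library 1 (log2 difference −0.80, adjusted p = 0.100), without S34F library 3 (−0.92, 0.105), without WT library 2 (−0.88, 0.133), without WT library 3 (−0.91, 0.137) and with WT libraries 2 and 3 summed (−0.89, 0.132), within a range of 5.38e-05 to 0.137 over all settings.

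The next 4 pathway genes by p did not pass the test. Recql4, a helicase with a part in origin firing, had 66.9, 51.4 and 67.4 CPM in the S34F libraries, against 46.8, 34.3 and 29.1 CPM in the WT libraries (log2 difference 0.75 ± 0.19 (SE), edgeR adjusted p = 0.0777). Chtf8, a subunit of an alternative clamp loader, had 204, 192 and 203 CPM in the S34F libraries, against 159.7, 149 and 140.0 CPM in the WT libraries (log2 difference 0.42 ± 0.10 (SE), edgeR adjusted p = 0.0750). For both genes all S34F values lay above all WT values. In GENCODE M21 a second Chtf8 entry covers 91.8% of the exon bases of Chtf8 on the same strand. The deposited counts hold no row for that entry, and its bearing on the Chtf8 count was not tested. Atad5, which unloads PCNA, had 64.9, 73.5 and 65.3 CPM in the S34F libraries, against 83.4, 88.1 and 86.3 CPM in the WT libraries (log2 difference −0.34 ± 0.10 (SE), edgeR adjusted p = 0.115). Dtl, which directs the destruction of Cdt1, had 111, 109 and 82.7 CPM in the S34F libraries, against 141, 129.6 and 127 CPM in the WT libraries (log2 difference −0.39 ± 0.13 (SE), edgeR adjusted p = 0.146). In both of these, all S34F values lay below all WT values. With the GC trend removed, the log2 difference of Atad5 was −0.15, and that of Dtl −0.26.

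The labelled cell type was checked against marker genes. The 9 myeloblast markers had a summed level of 1745 to 2047 CPM in S34F and 1387 to 1633 CPM in WT, mostly from Csf2rb and Ptprc. Of the 9, 1 passed the test, Spi1, which rose by 0.60 on the log2 scale (edgeR adjusted p = 0.0491, just under the threshold). Mpo was at 2.99 to 15.8 CPM in S34F and 9.01 to 9.84 CPM in WT. Elane was at most 0.260 CPM in S34F and 0.324 CPM in WT, and Kit was 0 CPM in S34F and at most 0.177 CPM in WT, so these defining markers were at or near 0. Ctsg, Spi1 and Il3ra had all S34F libraries above all WT libraries, which held for 14.0% of all tested genes. The groups overlapped for Mpo, Elane, Prtn3, Kit, Ptprc and Csf2rb, and Prtn3 had a log2 difference of −0.40. Summed levels of 5 macrophage markers were 263 to 361 CPM in S34F and 236 to 244 CPM in WT, mostly from Adgre1, and none of the 4 with enough counts passed the test. Cd68 had 32.4, 32.2 and 32.0 CPM in the S34F libraries, against 19.9, 7.54 and 7.46 CPM in the WT libraries (log2 difference 1.47 ± 0.35 (SE), edgeR adjusted p = 0.0695). The fitted levels of Csf1r and Cd14 were 2.72 and 4.22 times those of WT, with overlapping libraries. Markers of mature neutrophils, mast cells and basophils, erythroid, lymphoid and fibroblast cells summed to at most 18.7 CPM in any library, and Retnlg, Fcer1a, Tpsb2, Hbb-bt, Cd3e, Ms4a1, Col3a1, Dcn and Pdgfra were among those at 0. The part of the myeloblast and macrophage markers in the values of the replication genes was not tested.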

How the data were processed

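As deposited, the table held unnormalised read counts of each Ensembl gene with its symbol for 6 libraries. Its columns were matched to samples by genotype and replicate number. Reads were processed with HISAT2 and featureCounts on mm10, per the submitters' processing notes. The strand setting is not stated there, and reads of overlapping genes may be shared in ways that could not be checked. Libraries were made with a directional kit, per the labels' protocols.

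Counts were fitted in edgeR 4.0.16 (R 4.3.3) with TMM scaling, filterByExpr and glmQLFTest (robust, two-sided) on genotype alone, with 4 residual degrees of freedom and Benjamini-Hochberg adjustment over 13444 genes. Standard errors are the log2 difference over the root of F. Alternatives were other scalings and filters, DESeq2 1.42.0, limma-voom (limma 3.58.1), a replicate block, GC-trend offsets, WT libraries 2 and 3 summed, and each library left out. Coordinates, exon lengths and GC content came from GENCODE M21 on GRCm38, where 54495 of the 54532 gene IDs were found. GC content was known for 13433 tested genes. In a simulated data set the share of false calls was above the nominal 5%, and most changes of 1.5-fold were missed.

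Values in every library are given for the 10 members with the smallest p, the 3 highest and 3 lowest log2 differences and the MCM subunits, together 15 genes, and for the 5 further pathway genes with the smallest p. The members and lists were chosen with earlier results of these data known.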

Additional observations from a re-analysis of the deposited data

How the results depend on the processing

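All 17 other settings kept the median log2 difference of the 47 members near 0, between −0.08 and 0.10, the extremes coming from fits that left out 1 library. Counts of calls depended on the setting. Without a count filter 763 genes passed, 3 of them members (Dut, Orc3, Rfc2) and 2 of the 77 further pathway genes. With DESeq2 the counts were 1082, 3 (the same genes) and 3. Offsets for a GC trend gave 153 genes and no member, and WT libraries 2 and 3 summed gave 20 genes, no member and 0 pathway genes. Leaving out 1 library gave 19 to 1177 genes, 0 to 4 members and 0 to 6 pathway genes. The 4 members without WT library 1 were Orc3, Orc4, Pcna and Rfc2, and Rfc2 alone passed without S34F library 2. These members kept their direction in every setting tried. Without WT library 1 the WT spread rests on WT libraries 2 and 3 alone, which are unusually close, so the calls of that fit are less certain.

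Same-numbered S34F and WT libraries deviated together with correlations of 0.33, 0.16 and 0.07. S34F library 3 correlated about equally with WT library 2 (0.08) and WT library 3 (0.07). WT libraries 2 and 3 were so alike that this check cannot tell matched from unmatched libraries there. The main fit did not treat the numbers as pairs, and whether they mark pairs is not known. With the replicate block 1418 genes passed, 4 of them members (Dut, Mcm6, Orc3, Rfc2) and 5 pathway genes. The block with GC offsets gave 1043 genes, 4 members (Dut, Mcm6, Pcna, Rfc2) and 3 pathway genes.

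Of 20 named genes, 17 kept their sign in all settings. Mcm3 and Mcm7, close to 0, turned to −0.0177 and −0.0126 with upper-quartile factors, to −0.0174 and −0.0130 with library totals alone, to −0.0497 and −0.0236 with the block and GC offsets, to −0.0650 and −0.0298 with GC offsets, and to −0.0745 and −0.0737 with WT libraries 2 and 3 summed. With 1 library left out, Mcm2 ran from −0.202 to 0.116, Mcm3 from −0.0835 to 0.204 and Mcm7 from −0.0897 to 0.220. The cause was not tested. Exon lengths other than the annotated union were not run, since the count table gives none. Fen1 had the lowest level of any member in any library, 2.32 CPM in WT library 3.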
